A study of Rattus norvegicus with 6 samples.

Results

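Surfactant and alveolar type 2 (AT2) cell genes were examined in the pulmonary veins (PVs) of neonatal rats after bilateral pulmonary vein banding (BPVB). The 10 genes were chosen by symbol: Sftpa1, Sftpb, Sftpc, Sftpd, Abca3, Lamp3, Napsa, Slc34a2, Nkx2-1 and Etv5. All 10 were found among the 17833 genes of the deposited expression table, and all 10 passed the filter on low expression. Bulk RNA-seq was available for 3 BPVB rats and 3 sham-operated rats, all wild-type Sprague-Dawley pups operated on at postnatal day 1 and sampled at postnatal day 21. The banded rats carried a constriction of the PVs on both sides, whereas in the sham rats the chest was opened and a suture was passed at the veins and taken out again, leaving them unconstricted. In both groups RNA came from a whole piece of the PV of the right upper lung lobe, so that each value averages over all cells in the piece. Because the tissue was not separated into cell types, more cells of a type, of vein or of adjoining lung, and more RNA per cell cannot be told apart. The amount of adjoining lung in each piece is not given. In its single-cell data of PVs, the paper left out epithelial cells, which it held likely to stem from lung parenchyma and not from the vein.

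AT2 cells are the secretory cells of the lung alveolus. They make pulmonary surfactant, a film of phospholipid and protein that lowers surface tension at the air-liquid surface, store it in lamellar bodies and release it into the airspace. Nkx2-1 is the transcription factor that specifies lung epithelium, and Etv5 is an ETS factor that acts downstream of fibroblast growth factor (FGF) signalling and maintains AT2 identity. A pulmonary vein has an endothelium, a smooth muscle wall and, near the heart, a sleeve of atrial myocardium, and it has no alveolar epithelium of its own.

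The 6 libraries held between 23324220 and 29583436 fragments on the listed genes, as recovered from the whole-number steps of the FPKM (fragments scaled to gene length and library size), and 15150 genes passed a minimum mean FPKM of 0.1 and were tested. The defining markers of the labelled tissue were high in all 6 libraries. The summed FPKM of 5 smooth muscle markers was 4349 to 4390 in the BPVB group and 4549 to 4617 in the sham group, that of 4 endothelial markers was 837 to 851 and 928 to 935, and that of 7 markers of atrial myocardium was 13530 to 13955 and 18113 to 18470. Pairs of libraries of one group differed by more than sampling noise (chi-square per gene 4.59 to 6.44), and all 6 were used as separate samples.

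Surfactant and AT2 genes were higher in the BPVB group as a group of genes with unequal changes. With limma on log2(FPKM + 0.5) and Benjamini-Hochberg adjustment over all tested genes, 9 of the 10 genes rose with an adjusted p under 0.05, against 17.2% of all tested genes, and 0 fell, against 14.3%. For this and for every gene list of which 0 genes are said to have risen or fallen, the count was also 0 at an unadjusted p under 0.05 (limma) and with limma-voom. At an adjusted p under 0.05 and a log2 fold change above 1, the thresholds for differentially expressed genes (DEGs), 8 of the 10 were up-regulated, against 2.24% of all tested genes. The means of these 8 genes were 5.80 to 13.6 times as high in the BPVB group as in the sham group. The other two, Abca3 and Etv5, had ratios of 1.26 and 1.19. In all 10 genes, the 3 BPVB values lay above the 3 sham values, as they did for 25.2% of all tested genes. The median log2 fold change of the 10 genes was 2.68, and that of all tested genes was 0.02.

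**Figure D1:**
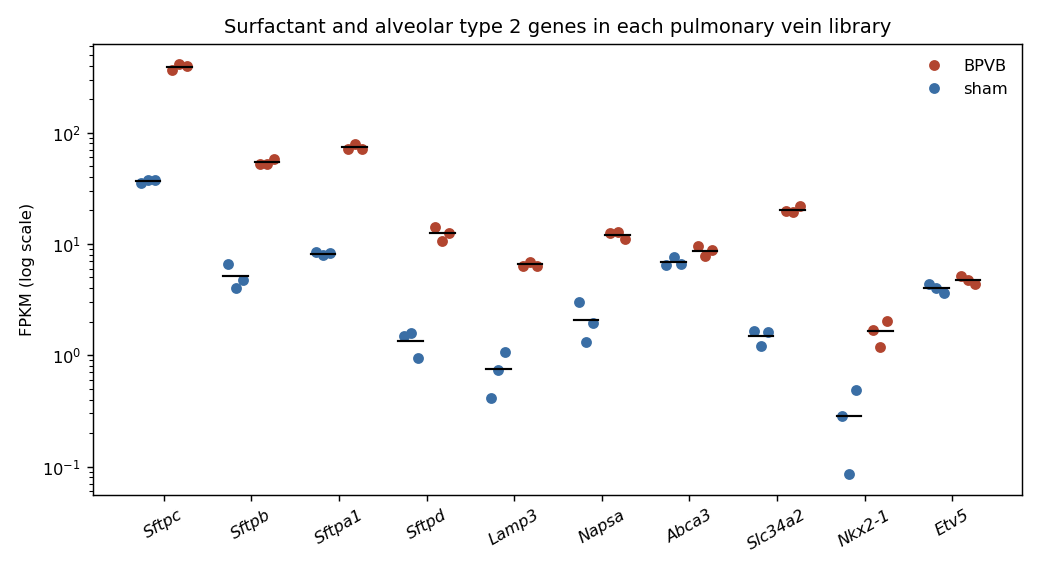
FPKM (log axis) of the 10 surfactant and AT2 genes in each of the 3 sham and 3 BPVB libraries. Points are libraries and horizontal lines are group means. Sftpc was the highest of the 10 in both groups, and 8 genes were separated by a wide gap between the groups. For Abca3 and for Etv5, the BPVB and sham values of the gene lay close together.

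The 2 hydrophobic surfactant proteins, SP-C and SP-B, insert into the phospholipid film and allow it to spread. Sftpc, which encodes SP-C, had an FPKM of 367, 409 and 393 after banding and of 35.0, 37.2 and 37.6 after sham surgery. Every BPVB library was near 10 times as high as every sham library, and the spread within each group was small beside this difference. Its mean FPKM was 390 ± 22 (SD, n = 3) against 36.6 ± 1.4 (SD, n = 3), a log2 fold change of 3.40 (limma, SE 0.05, adjusted p = 8.6e-10). By mean FPKM, Sftpc ranked 200 of all 17833 listed genes in the BPVB group and 2039 in the sham group, so that its transcripts were also present in the sham veins. The sham values rested on 653 to 703 fragments per library.

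Sftpb, which encodes SP-B, had an FPKM of 52.5, 52.6 and 57.6 after banding and of 6.55, 4.01 and 4.76 after sham surgery. Relative to their mean, the sham libraries varied by more than the BPVB libraries, with sham replicate 1 the highest of them, and the groups were far from overlapping. The log2 fold change was 3.31 (limma, SE 0.14, adjusted p = 5.7e-07), and the ratio of the means was 10.6.

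The collectins SP-A and SP-D bind sugars on microbes and act in the innate defence of the airspace. Sftpa1, which encodes SP-A, had an FPKM of 70.7, 78.7 and 71.5 after banding and of 8.40, 7.92 and 8.23 after sham surgery. The groups were far apart, with a log2 fold change of 3.09 (limma, SE 0.05, adjusted p = 2.3e-09). Sftpd, which encodes SP-D, was the lowest of the 4 surfactant protein genes, with an FPKM of 14.3, 10.6 and 12.5 after banding and of 1.48, 1.57 and 0.940 after sham surgery. It rose by a similar factor, with a ratio of the means of 9.39 and a log2 fold change of 2.84 (limma, SE 0.16, adjusted p = 2.8e-06), and its sham values rested on 14 to 23 fragments per library.

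Added together, the 4 surfactant protein genes had a summed FPKM of 504, 551 and 535 after banding and of 51.4, 50.7 and 51.5 after sham surgery. Banding thus went with a mean sum 10.4 times that of the sham group (two-sided exact permutation p = 0.1, which is the minimum for 3 against 3). As a share of all FPKM, the sum was 0.111% ± 0.0044 (SD, n = 3) after banding and 0.0105% ± 6.2e-05 (SD, n = 3) after sham surgery.

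Of the shares of the 4 genes in this sum, 3 overlapped between the groups. Sftpc made up 73.5% ± 0.76 (SD, n = 3) of it after banding and 71.5% ± 3.0 (SD, n = 3) after sham surgery, and the values overlapped (exact permutation test, two-sided, p = 0.4). The share of Sftpb was 10.2% ± 0.63 and 9.96% ± 2.5 (SD, n = 3 each) and that of Sftpd was 2.37% ± 0.46 and 2.60% ± 0.68 (SD, n = 3 each), both with overlapping values. The share of Sftpa1 was lower in the BPVB group, with 14.0%, 14.3% and 13.4% against 16.3%, 15.6% and 16.0% in the sham libraries. This difference was 0.87-fold, without overlap between the groups (two-sided exact permutation p = 0.1, the minimum). These p-values do not show that the other shares were equal.

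Napsa, Lamp3 and Abca3 act where surfactant is processed and stored. Napsa encodes napsin A, an aspartic protease that cleaves the precursor of SP-B. It had an FPKM of 12.5, 12.8 and 11.03 after banding and of 3.00, 1.302 and 1.94 after sham surgery, so that even the highest sham library was far below the banded rats. The log2 fold change of Napsa was 2.34 (limma, SE 0.21, adjusted p = 4.6e-05). Lamp3 encodes a lysosome-associated membrane protein found on lamellar bodies and also in mature dendritic cells. Its FPKM was 6.38, 6.85 and 6.39 after banding and 0.414, 0.743 and 1.08 after sham surgery. The BPVB libraries were nearly equal, whereas the sham libraries, with 13, 23 and 34 fragments, spread over a wide range. The log2 fold change of Lamp3 was 2.53 (limma, SE 0.18, adjusted p = 1.4e-05), and the ratio of its means was 8.77.

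Abca3, which encodes the transporter that loads phospholipid into lamellar bodies, changed little. It had an FPKM of 9.53, 7.77 and 8.81 after banding and of 6.51, 7.57 and 6.61 after sham surgery. The highest sham library was just under the lowest BPVB library. The log2 fold change was 0.31 (95% confidence interval 0.10 to 0.53, adjusted p = 0.034, limma). This call rested on single libraries, since the adjusted p was 0.11 when BPVB replicate 1 was left out, 0.089 for BPVB replicate 3, 0.1 for sham replicate 1 and 0.096 for sham replicate 3. It was also lost with the replicate number as a block (0.065) and without a filter on low expression (0.053), and the adjusted p ranged from 0.00085 to 0.11 over all alternatives. In the sham group Abca3 was at a higher mean FPKM than Sftpb (6.89 against 5.10), and in the BPVB group at a lower one (8.70 against 54.2).

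Slc34a2 encodes the sodium-dependent phosphate transporter of the apical AT2 membrane. Its FPKM was 19.7, 19.2 and 21.8 after banding and 1.65, 1.21 and 1.61 after sham surgery. The ratio of its means, 13.6, was the highest of the 10 genes, and its log2 fold change was 3.39 (limma, SE 0.11, adjusted p = 1.1e-07). RefSeq lists an uncharacterized gene that overlaps Slc34a2, and likewise 1 that overlaps Nkx2-1. The strand setting of the counting is not given in the sources used here, so that reads of the overlapping genes cannot be told apart.

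**Figure D2:**
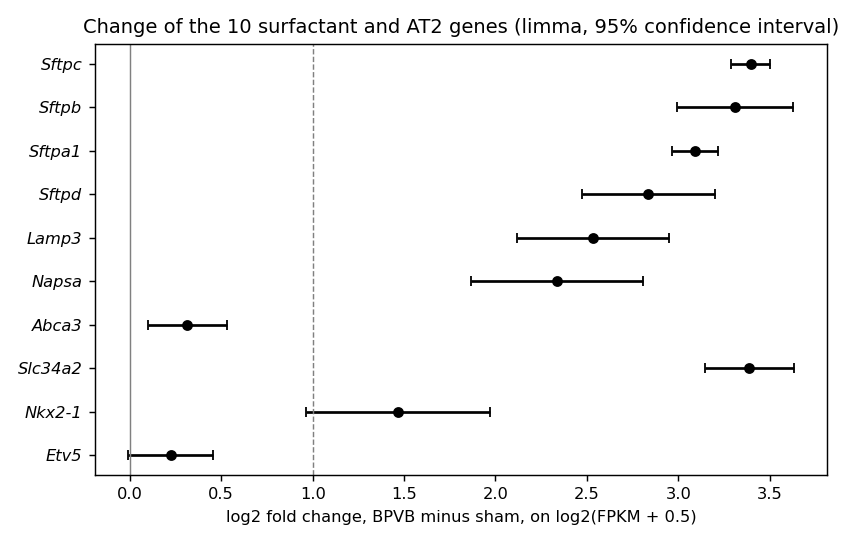
Log2 fold change between the BPVB and sham groups on log2(FPKM + 0.5) for the 10 genes, with 95% confidence intervals from limma. The dashed line marks a log2 fold change of 1. The intervals of 7 genes lay wholly above 1, that of Nkx2-1 reached down to 0.96, and those of Abca3 and Etv5 lay below 1.

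The 2 transcription factors differed. Nkx2-1 had an FPKM of 1.69, 1.198 and 2.04 after banding and of 0.284, 0.0853 and 0.483 after sham surgery, from 27, 8 and 46 fragments in the latter. The groups did not overlap, but each spread over a wider relative range than those of the surfactant protein genes. The ratio of its means was 5.80 and its log2 fold change was 1.46 (limma, SE 0.22, adjusted p = 0.0011). At this low level the fold change depended on the pseudocount and was 1.04 with a pseudocount of 1, 2.30 with a pseudocount of 0.1 and 2.80 with limma-voom on the recovered fragments.

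Etv5 had an FPKM of 5.20, 4.71 and 4.38 after banding and of 4.36, 4.04 and 3.62 after sham surgery. The lowest BPVB library and the highest sham library were nearly equal. Its log2 fold change of 0.22 did not pass the threshold (95% confidence interval -0.01 to 0.46, adjusted p = 0.13, limma), and the interval did not reach a log2 fold change of 1. The adjusted p of Etv5 was between 0.10 and 0.33 under all alternatives.

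Ratios between genes of one library hardly depend on how libraries are scaled. Each gene was therefore also expressed on the log2 scale relative to the mean of the other 9 genes of the same library. On this scale the difference between the BPVB and sham means was -2.20 for Abca3 and -2.30 for Etv5. It was 1.23 for Sftpc, 1.22 for Slc34a2, 1.14 for Sftpb, 0.89 for Sftpa1 and 0.61 for Sftpd. The groups did not overlap in these 7 genes (two-sided exact permutation p = 0.1 for each, the minimum). These differences follow from the fold changes given above and are not further tests. On FPKM itself, 25.2% of all tested genes had all BPVB values above the sham values, and 20.5% had them below. No such share was obtained on the relative scale. For Nkx2-1 the difference was -0.92, without overlap, and -0.25 with a pseudocount of 0.1. Lamp3 (0.27) and Napsa (0.05) overlapped between the groups (exact permutation test, p = 0.4 and p = 0.9). With single libraries left out, the difference ran from 0.0019 to 0.47 for Lamp3 and from -0.15 to 0.29 for Napsa, so that it had no fixed direction for Napsa.

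The unequal changes were plain in the ratios of FPKM. Sftpc was 38.5, 52.7 and 44.7 times as high as Abca3 after banding, and 5.38, 4.91 and 5.69 times as high after sham surgery. It was 70.5, 86.9 and 89.9 times as high as Etv5 after banding, and 8.03, 9.20 and 10.4 times as high after sham surgery. By contrast, the ratio of Sftpc to Sftpb was 7.20 ± 0.51 (SD, n = 3) after banding and 7.51 ± 2.0 (SD, n = 3) after sham surgery, with overlapping values. All 10 comparisons relative to the other genes use the same 6 libraries and are not independent of each other, and adjustment over them cannot take the smallest p of 0.1 any lower.

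**Figure D3:**
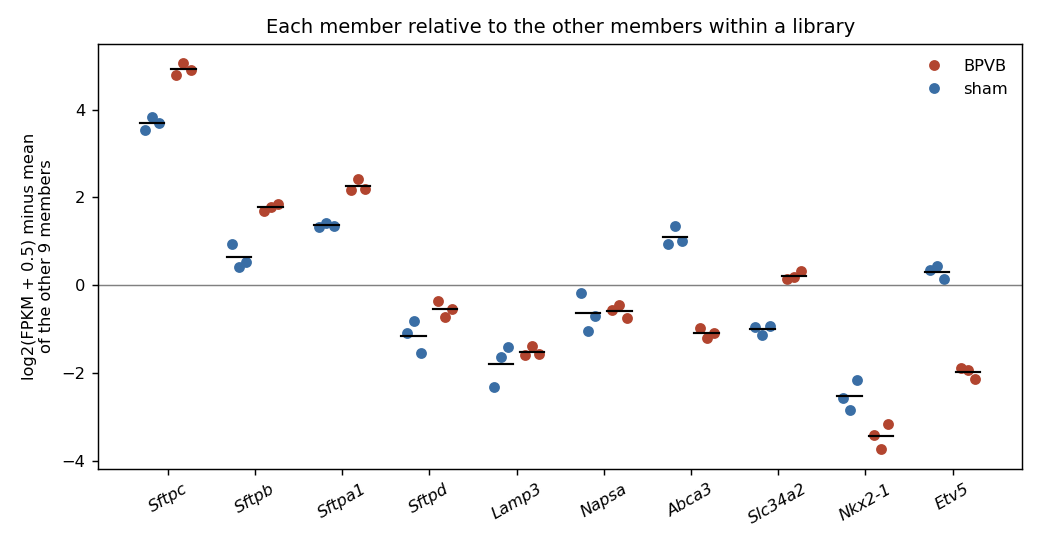
Level of each of the 10 genes relative to the mean of the other 9 in the same library, on log2(FPKM + 0.5), for the 3 sham and 3 BPVB libraries. Points are libraries and horizontal lines are group means. Abca3 and Etv5 moved from above to below the mean of the other genes, and Lamp3 and Napsa overlapped between the groups.

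Because Nkx2-1 and the forkhead FOXA factors are known to act at surfactant gene promoters, the 250 bases before the annotated start were searched on both strands for CTCAAG, the core of the NKX2-1 site, its shorter core CAAG, the FOXA sequence TGTTTNC and the C/EBP sequence TTGCNNAA. RefSeq (build GRCr8) gave a promoter for 7 of the 10 genes. Those of Sftpc, Sftpd and Napsa were not used here. The promoters of Slc34a2 (chr14:62143073-62143322, minus strand), Sftpb (chr4:105917338-105917587, plus strand) and Sftpa1 (chr16:17042014-17042263, plus strand), 3 genes with a large rise, are shown beside those of Abca3 (chr10:13886834-13887083, plus strand) and Etv5 (chr11:92113013-92113262, plus strand), the 2 genes that changed least. Capitals mark matches to the NKX2-1 core, the FOXA sequence or the C/EBP sequence on either strand.
Slc34a2: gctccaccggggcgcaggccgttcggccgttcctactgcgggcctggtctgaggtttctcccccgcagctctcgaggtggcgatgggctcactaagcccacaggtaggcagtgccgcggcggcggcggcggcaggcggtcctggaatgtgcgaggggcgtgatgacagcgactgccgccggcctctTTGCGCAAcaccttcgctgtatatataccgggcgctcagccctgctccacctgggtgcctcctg
Sftpb: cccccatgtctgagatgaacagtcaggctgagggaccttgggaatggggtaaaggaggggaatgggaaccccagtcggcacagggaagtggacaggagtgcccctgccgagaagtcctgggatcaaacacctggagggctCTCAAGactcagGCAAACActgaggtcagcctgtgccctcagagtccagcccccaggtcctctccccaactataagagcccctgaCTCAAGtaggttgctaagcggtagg
Sftpa1: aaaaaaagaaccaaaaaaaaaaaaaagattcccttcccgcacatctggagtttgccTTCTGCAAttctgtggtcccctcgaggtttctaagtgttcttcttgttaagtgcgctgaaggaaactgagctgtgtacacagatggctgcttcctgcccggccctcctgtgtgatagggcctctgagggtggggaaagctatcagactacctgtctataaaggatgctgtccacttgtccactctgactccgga
Abca3: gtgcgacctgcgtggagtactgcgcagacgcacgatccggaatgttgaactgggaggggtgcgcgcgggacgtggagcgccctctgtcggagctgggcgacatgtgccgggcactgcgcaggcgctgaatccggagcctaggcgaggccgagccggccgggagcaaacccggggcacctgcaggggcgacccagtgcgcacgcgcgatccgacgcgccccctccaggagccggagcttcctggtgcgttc
Etv5: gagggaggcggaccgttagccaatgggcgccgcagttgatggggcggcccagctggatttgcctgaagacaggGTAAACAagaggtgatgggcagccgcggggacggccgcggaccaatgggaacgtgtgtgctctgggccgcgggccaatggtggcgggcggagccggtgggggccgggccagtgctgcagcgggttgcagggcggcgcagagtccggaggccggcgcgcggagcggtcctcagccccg
The Slc34a2 promoter, of the gene with the highest ratio, held no match to either NKX2-1 core or to the FOXA sequence, and its C/EBP match, 64 bases before the start, reads alike on both strands. The Sftpb promoter held CTCAAG at 110 and at 25 bases before the start, with a FOXA match at 98 bases before it on the opposite strand. It also held CAAG once outside these, 214 bases before the start. The Sftpa1 promoter held 1 C/EBP match, 194 bases before the start, and CAAG at 152 and 21 bases before it. The Abca3 promoter held none of the 4 sequences, and that of Etv5 held 1 FOXA match, 177 bases before the start, and CAAG at 172 bases before it. The Lamp3 promoter, not shown, held a FOXA match 120 bases before the start and CAAG, but not CTCAAG. Over the 7 promoters, CTCAAG was found in 2 (Sftpb and Nkx2-1), CAAG in 5, the FOXA sequence in 3 and the C/EBP sequence in 3. Of all 33469 promoters in the RefSeq table, 13.3% held CTCAAG, 86.7% held CAAG, 18.3% the FOXA sequence and 9.22% the C/EBP sequence. CAAG lies within CTCAAG, so that these 2 counts overlap. A match is a description of the sequence, and the start used by these vein transcripts was not measured.

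In a further list of 16 genes known from AT2 cells, 12 were tested and their median log2 fold change was 0.87. Of these 12, 9 rose, 6 of them past a log2 fold change of 1, and 0 fell. The 6 were Slc6a14, an amino acid transporter (log2 fold change 1.84), the mucin gene Muc1 (1.82), Lgi3 (1.53), S100g (1.52), Cebpa (1.29), a C/EBP transcription factor, and Acoxl (1.02). Their order depended on the pseudocount, since all but Cebpa had a mean FPKM under 0.5 in the sham group. Acoxl, with 40, 51 and 51 fragments after banding and 0, 1 and 2 after sham surgery, had a log2 fold change of 5.05 with limma-voom, Slc6a14 one of 4.68 and Cebpa one of at most 1.48 under any alternative. Lpcat1, the acyltransferase that makes the main surfactant phospholipid, rose by less, from an FPKM of 6.83 ± 0.68 to 9.79 ± 0.39 (SD, n = 3 each; log2 fold change 0.49). Ctsh, a cathepsin that also processes SP-B, had an FPKM of 138 in the BPVB group and 132 in the sham group and did not pass the threshold (log2 fold change 0.06, adjusted p = 0.21, limma). Like Abca3, it was well above 0 in the sham veins, and it is known from many cell types.

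Of 13 genes of fatty acid and phospholipid synthesis, 7 rose and 0 fell, with a median log2 fold change of 0.22, and none of them reached a log2 fold change of 1. Among these were Agpat2 (0.78), the desaturase Scd (0.57), the lipogenic factor Srebf1 (0.54) and Gpam (0.46). Pcyt1a, which makes the rate-limiting step of phosphatidylcholine synthesis, had a log2 fold change of 0.13 and an adjusted p of 0.067 (limma), which was under 0.05 when libraries were scaled to a common FPKM sum (0.034) and with limma-voom (0.016). With single libraries left out, 5 or 6 of the 13 genes rose.

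Of 11 transcription factors of lung epithelium, 7 were tested and 4 rose. The call of Tfcp2l1 (log2 fold change 0.47) was lost without any 1 of the 6 libraries, with adjusted p from 0.052 to 0.076, and with the replicate number as a block (0.058). Klf5 rose from a mean FPKM of 0.34 ± 0.071 to 2.30 ± 0.16 (SD, n = 3 each; log2 fold change 1.74, adjusted p = 1.6e-05, limma), and limma-voom gave a log2 fold change of 2.76. Ehf rose by 0.61 on the log2 scale, and Foxa2, an endoderm factor, by 0.73 at a mean FPKM of 0.54 in the BPVB group. At these low levels the size depended on the pseudocount, with 0.37 for Ehf and 0.45 for Foxa2 at a pseudocount of 1, and 1.94 and 2.87 with limma-voom. The call of Foxa2 was lost without BPVB replicate 1 (adjusted p = 0.058), BPVB replicate 3 (0.074) or sham replicate 2 (0.069). Gata6 and Id2, which vascular and heart cells also use, had log2 fold changes of 0.07 and -0.09 and did not pass the threshold.

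In a list of 7 genes of FGF signalling, which acts upstream of Etv5, 3 rose and 1 fell, beside 17.2% and 14.3% of all tested genes, so that 1 of 7 lower is no more than the share over all genes. Fgf10, the ligand, had a log2 fold change of 0.57 (adjusted p = 0.021, limma), which was not called without BPVB replicate 1 (0.071), without sham replicate 1 (0.069) or with limma-voom (0.32). The receptor gene Fgfr2 had an FPKM of 5.42 ± 0.32 in the BPVB group and 2.89 ± 0.33 in the sham group (SD, n = 3 each; log2 fold change 0.81, adjusted p = 0.00044, limma), and the feedback phosphatase gene Dusp6 rose by 0.45. Spry1, a feedback inhibitor of the pathway, fell by 0.59 on the log2 scale (adjusted p = 3.6e-05, limma), while Spry2 (-0.18) and Spry4 (0.18) did not pass the threshold.

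Relatives of the 10 genes were set beside them. Of 18 such paralogs, 14 were tested, 7 rose and 1 fell, with a median log2 fold change of 0.22. Over all tested genes 17.2% rose and 14.3% fell. With single libraries left out, 5 to 8 of the paralogs rose. The lysosomal genes Lamp2 (0.22) and Ctsd (0.22), relatives of Lamp3 and Napsa, rose by far less than the 2 AT2 genes, and so did the collectin gene Colec12 (0.24) and the phosphate transporter gene Slc20a2 (0.31). Psap, the relative of Sftpb that encodes prosaposin, had a log2 fold change of 0.06 (adjusted p = 0.072, limma). It passed the threshold in 3 alternatives, with an adjusted p of 0.00099 after quantile normalization. Abca1, the cholesterol exporter, rose by 1.13, while its relative Abca3 had a log2 fold change of 0.31. Etv4, a relative of Etv5, had a log2 fold change of 0.48 (adjusted p = 0.085, limma), and was called with the replicate block (0.043) and without sham replicate 2 (0.046). Its size depended on the pseudocount, with 0.32 at a pseudocount of 1 and 1.02 with limma-voom.

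Surfactant is taken up and broken down by alveolar macrophages under the control of the cytokine GM-CSF. Of 7 tested genes of surfactant uptake and clearance, 4 rose and 1 fell, beside 17.2% and 14.3% of all tested genes. The 1 of 7 lower is thus no more than the share over all genes. The GM-CSF receptor genes Csf2rb (log2 fold change 1.301) and Csf2ra (0.58), the cholesterol exporter Abcg1 (0.63) and the scavenger receptor Msr1 (0.92) rose. Adgrf5, a receptor that limits the surfactant pool and is also abundant in endothelium, fell from an FPKM of 114 ± 1.4 to 73.3 ± 0.96 (SD, n = 3 each; log2 fold change -0.63, adjusted p = 1e-06, limma).

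Most alveolar type 1 (AT1) and pan-epithelial markers rose along with the surfactant genes, by unequal amounts. All 10 AT1 markers were tested, of which 9 rose and 1 fell, and their summed FPKM was 266 to 275 in the BPVB libraries and 164 to 167 in the sham libraries. Cldn18, a tight junction gene of alveolar epithelium (log2 fold change 3.01), Ager (2.54), the water channel gene Aqp5 (2.52) and Pdpn (2.04) rose. So did Rtkn2 (1.58), which was low in the sham group and whose ratio of means, 8.94, was above those of Aqp5 (8.60) and Ager (6.10). For Rtkn2 a pseudocount of 1 gave a log2 fold change of 1.09 and limma-voom one of 3.37. Gprc5a (0.79), Emp2 (0.57) and Clic5 (0.34) rose by less than a log2 fold change of 1. Hopx, which is also a gene of cardiac muscle, fell by 0.26. In a list of 10 pan-epithelial markers, 6 of 9 tested genes rose, among them Epcam (2.42) and Cdh1 (1.59), and 0 fell. Krt18 (0.60), Cldn7 (0.51) and Esrp1 (0.40) did not pass the threshold. The summed FPKM of the list was 20.4 to 23.9 in the BPVB group and 4.81 to 6.43 in the sham group.

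Of 7 markers of airway club cells, Scgb1a1 alone was tested, and it rose from an FPKM of 4.07 ± 0.83 to 25.4 ± 2.2 (SD, n = 3 each; log2 fold change 2.52, adjusted p = 1.6e-06, limma). Scgb3a1, Scgb3a2, Cyp2f4 and Muc5b were each above 0 in 1 of the 6 libraries. The list summed to 24.0 to 28.0 FPKM in the BPVB group and to 3.18 to 5.06 in the sham group. None of 5 tested markers of ciliated cells rose by the limma test, and Foxj1, which defines these cells, was above 0 in 1 sham library only. The 1 gene of that list that fell, Tppp3 (log2 fold change -0.67), made up nearly all of its summed FPKM of 82.1 to 91.4 in the BPVB group and 133 to 142 in the sham group. Whether these epithelial markers play a part in the rise of the surfactant genes was not tested.

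Sftpc was also set against Ager, 1 of the AT1 markers. Sftpc was 6.30, 6.71 and 7.35 times as high as Ager after banding and 3.56, 4.15 and 3.94 times as high after sham surgery. The mean ratio differed 1.75-fold, without overlap (two-sided exact permutation p = 0.1, the minimum). This was not so for all AT1 markers, since the means of Cldn18 differed 10.6-fold between the groups and those of Sftpc 10.7-fold.

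**Figure D4:**
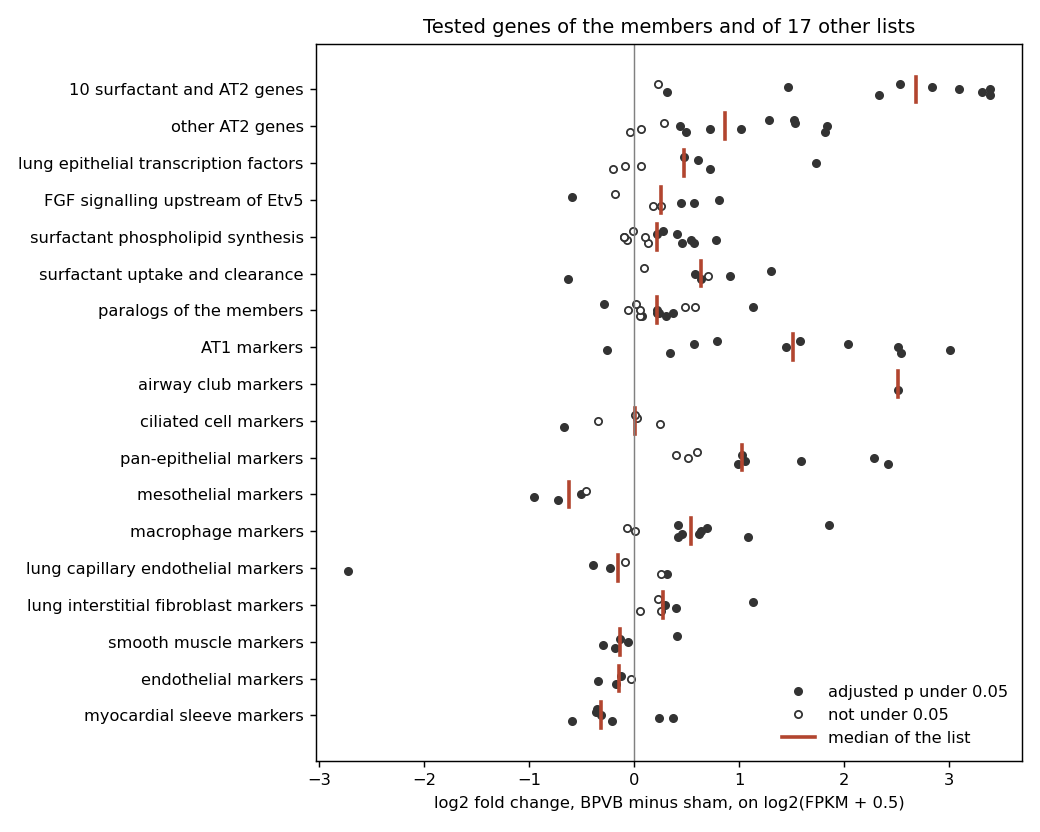
Log2 fold change between the BPVB and sham groups on log2(FPKM + 0.5) of each tested gene among the 10 surfactant and AT2 genes and 17 other lists. Filled points had an adjusted p under 0.05 (limma) and red lines are medians. The medians of the 10 genes (2.68), the airway club markers (2.52, from 1 tested gene), the AT1 markers (1.51) and the pan-epithelial markers (1.03) lay to the right, and that of the mesothelial markers (-0.62) to the left.

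Markers of other cells of lung and pleura were examined next. Of 4 tested mesothelial markers, 3 fell and 0 rose, with a summed FPKM of 2.28 to 2.38 in the BPVB group and 4.18 to 5.68 in the sham group. Upk3b, the surface uroplakin of mesothelium, had a log2 fold change of -0.96 at a mean FPKM of 0.115 after banding and 0.688 after sham surgery, which was -0.60 with a pseudocount of 1 and -3.06 with limma-voom. Among 6 tested markers of lung capillary endothelium, 1 rose, a share close to the 17.2% of all tested genes, and 3 fell, including Cd300lg (-2.72) and Gpihbp1 (-0.39), and the summed FPKM was 149 to 155 in the BPVB group and 179 to 182 in the sham group. Of 6 markers of lung interstitial fibroblasts, 3 rose and 0 fell, with a median log2 fold change of 0.27. Itga8 rose by 1.14, and the list summed to 181 to 188 FPKM against 137 to 146.

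Macrophage markers also moved with the surfactant genes. Of 10 markers, 8 rose and 0 fell, with a median log2 fold change of 0.54 and a summed FPKM of 718 to 736 in the BPVB group and 257 to 263 in the sham group. Lyz2, which AT2 cells share with macrophages, gave most of this sum, and Cd68 had a log2 fold change of 1.09. Of the markers of the vein itself, 4 of 5 smooth muscle genes, 3 of 4 endothelial genes and 5 of 7 myocardial genes fell. The medians were -0.13, -0.15 and -0.32, and 14.3% of all tested genes fell. No fall in these lists reached a log2 fold change of 1 in size. In the other direction, Des of the smooth muscle list (0.41) and Nppa (0.23) and Ryr2 (0.38) of the myocardial list rose. Myl7, the atrial myosin light chain, had a log2 fold change of -0.59, which was -0.15 and not called after quantile normalization (adjusted p = 0.31). The part of these cells in the rise of the surfactant genes was not tested.

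The genes whose pattern was most like the median of the 10 genes over the 6 libraries were sought among the other genes whose mean FPKM reached 1. Each gene was set to its own sham mean on log2(FPKM + 0.5), and likeness was measured as the root mean square difference over the 6 libraries. The nearest was RT1-Bb, an MHC class II gene with related copies (difference 0.11), followed by Sec14l3, which encodes a lipid-binding protein (0.11), and Ager (0.13). Angptl7, Spp1, Cyp2e1, the cell cycle inhibitor gene Cdkn1a and Inmt followed with differences of 0.15 to 0.16. The log2 fold changes of these 8 genes were between 2.51 and 2.85 with the pseudocount of 0.5. Angptl7 was near 0 in the sham group, with a mean FPKM of 0.130 against 3.85 after banding, and a pseudocount of 1 gave a log2 fold change of 2.10 and limma-voom one of 4.98, so that its likeness to the 10 genes depends on the pseudocount. RT1-Bb had an FPKM of 27.7, 30.8 and 27.7 after banding and of 3.83, 3.85 and 4.01 after sham surgery. This likeness is to the size of the step between the groups for the most part, since the groups are far apart.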

How the data were processed

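Bulk RNA-seq of the PVs of 3 BPVB and 3 sham rats was analysed, with groups and replicate numbers taken from the sample titles. According to the methods, reads were trimmed with fastp, mapped with HISAT and counted with HTSeq-count. The submitters' processing notes instead name HISAT2 2.0.5, StringTie 1.3.3b, featureCounts 1.5.0-p3 and DESeq2 1.20.0, and the library kit also differs between these sources. The authors deposited 1 FPKM value per gene and library. The genome build and strand setting are not given in the sources used here. The number of unused per-sample columns was 0.

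Whole fragments were recovered from the ratios of a gene's FPKM between libraries for 100% of genes (whole to within 1e-06 of a fragment), as the smallest numbers the values allow. On simulated data, 2884 of 2951 genes came out with all counts right. Library totals and limits from fragments cover counting error only.

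Groups were compared with limma 3.58.1 in R 4.3.3 (eBayes with a trend, two-sided) on log2(FPKM + 0.5) for the 15150 genes whose mean FPKM reached 0.1. DESeq2 was not run, since the deposited values are FPKM. Tested on simulated data of 15150 genes, the fit called 200 of 200 genes changed 4-fold, with the right sign, and 16 unchanged genes. Other steps used Python 3.11.15. Rats are separate animals. The 10 genes and 17 lists were chosen with earlier results of these data known, and 2 GO terms were added after the values were seen. Named genes are the 10, genes of these lists and terms, and the 8 nearest in pattern. Alternatives were pseudocounts of 1 and 0.1, other filters (none, or a minimum mean FPKM of 1), 3 other scalings, the replicate block, robust eBayes, limma-voom on recovered fragments and leaving out each library. The replicate numbers were not taken as pairs.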

Additional observations from a re-analysis of the deposited data

How the results depend on the processing

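The direction of all 10 genes held under every alternative run, and 8 of them stayed up-regulated DEGs, except that Nkx2-1 was not tested when a mean FPKM of 1 was required (7 of 9 tested). With the replicate block 8 of the 10 genes were called higher, against 9 without it, since Abca3 lost its call and the other calls among the 10 held. Correlations of deviations between same-numbered libraries were 0.014 to 0.025, each the highest of its library, so that the numbers were not treated as pairs. Over lung epithelial transcription factors, 1 gene was called higher at a mean FPKM of at least 1, and 2 to 3 with single libraries left out (2 without BPVB replicate 1, BPVB replicate 3 or sham replicate 2). Lung capillary endothelial markers had 2 called higher after scaling to a common FPKM sum, with limma-voom and at a mean FPKM of at least 1, and 1 to 2 with single libraries left out (2 without BPVB replicate 2).

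The pseudocount moved the relative changes. With a pseudocount of 1 these were 1.02 for Sftpa1, 1.42 for Sftpc, -2.01 for Abca3, 1.11 for Slc34a2 and -2.11 for Etv5. With a pseudocount of 0.1 they were 0.69 for Sftpa1, 0.98 for Sftpc, -2.45 for Abca3, -0.25 for Nkx2-1 and -2.54 for Etv5. That of Lamp3 ran from 0.029 to 0.58 over both, and that of Napsa from 0.024 to 0.029. Depth limits Nkx2-1, Lamp3 and Sftpd most, whose sham libraries held as few as 8, 13 and 14 fragments.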

Other observations

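The deposited annotation gives 2 terms on surfactant, which were looked at after the values were seen. The surfactant homeostasis term covered 17 tested genes, 3 of them among the 10 genes above. Of the 17, 8 rose and 4 fell, beside 17.2% and 14.3% of all tested genes. Those that fell included the hypoxia factor gene Epas1 (log2 fold change -0.47), the neuregulin receptor gene Erbb4 (-0.56) and the hormone gene Pthlh (-0.43). Pla2g4a (0.57) and Vegfa (0.34) rose, and so did Itgb6, an epithelial integrin (0.71), whose low sham mean FPKM of 0.144 makes this value depend on the pseudocount (ratio of means 3.90). The term for the alveolar lamellar body covered 8 genes, 4 of them among the 10. Of the 8, 5 rose, against 17.2% of all tested genes. These were Abca3, Napsa, Sftpb and Sftpc, already described above, and Lamp1 (log2 fold change 0.08, adjusted p = 0.047, limma). With the replicate block, 3 of the 8 rose, since Abca3 and Lamp1 lost their calls. The same held without BPVB replicate 1, BPVB replicate 3, sham replicate 1 or sham replicate 3. Of its vesicle traffic genes, Rab7a fell (-0.15) and Rab14 did not pass the threshold (adjusted p = 0.99, limma).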
